A study of Mus musculus with 16 samples.

Results

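Olfr2 (I7), Olfr15 (OR3), Olfr16 (MOR23), Olfr17 (P2), Olfr73 (mOR-EG), Olfr78, Olfr151 (M71) and Olfr160 (M72) are mouse odorant receptors known from work on receptor ligands and on the map of axons in the olfactory bulb. They were chosen by gene name, as 8 receptors of that kind, with earlier results of these data known. Of the 8, 6 had a named feature on the array, 1 each, among 1091 measured receptors of the Olfr family and 19505 measured genes. Olfr78 and Olfr151 had no feature under their names and were not analysed here. The values are log2 signals, so a difference of 1 is a factor of 2, and a level of 1 gene was set only against levels of the same gene.

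The 16 arrays came from sorted cells of the olfactory mucosa of C57BL/6 mice that carry S100a5-tauGFP, a green reporter driven by S100a5, a gene whose transcription in olfactory sensory neurons follows their activity. The 24 mice of both sexes, aged 7 to 12 weeks, spent 40 h in single clean-air chambers at 3.1 L/min, and from 26 h on received 10 s pulses every 20 min of whiskey lactone, an odorant that oak casks give to spirits, or of filtered air as vehicle. Cells of 3 mice formed a pool, and each of the 8 pools was sorted into 2 fractions. This gave 4 arrays of odor pools titled GFP+, 4 of odor pools titled GFP-, 4 of vehicle pools titled GFP+ and 4 of vehicle pools titled GFP-, and all 4 groups carried the reporter.

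The titles and the cell type field name the fractions the opposite way in all 16 arrays. Groups below follow the titles, and each fraction difference is titled GFP+ minus titled GFP-. Under the cell type field every such sign would turn. S100a5 itself was lower in the arrays titled GFP+ in 8 of 8 pools, with a log2 difference of -1.34 ± 0.09 (SE) in odor pools and -1.23 ± 0.09 in vehicle pools (limma, adjusted p = 2.07e-07 and 4.78e-07). Omp, a marker of mature olfactory sensory neurons, was at 18.43 to 18.71 in arrays titled GFP+ and 18.60 to 18.83 in arrays titled GFP-, and its difference missed the threshold in both treatments. Markers of other cells moved with the title fraction. All 10 of 10 neutrophil markers were higher in the arrays titled GFP+ in both treatments, and their mean level ran from 13.41 to 15.54 in arrays titled GFP+ of odor pools, against 5.73 to 6.89 in arrays titled GFP- of the same pools. In vehicle pools that mean was 14.11 to 14.90 in arrays titled GFP+ and 6.01 to 7.12 in arrays titled GFP-, and 2 of the 10 were at or below the negative control median in all arrays titled GFP- of each treatment. The part of these cells in the differences of the receptors was not tested.

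An olfactory sensory neuron transcribes 1 of the odorant receptor genes from 1 allele, and axons of neurons with the same receptor gather in the same glomeruli of the olfactory bulb. The receptors are G protein-coupled: odor binding activates the G protein alpha subunit Gnal, adenylyl cyclase Adcy3 and a cyclic nucleotide-gated channel, and calcium then opens the chloride channel Ano2. Because each receptor is made by a small share of the neurons, its signal in a sorted fraction follows both how many of its neurons the fraction holds and how much receptor RNA each has, and fewer cells and less RNA per cell cannot be told apart in bulk arrays. I7 responds to aliphatic aldehydes such as octanal, MOR23 to lyral, mOR-EG to eugenol and M72 to acetophenone, P2 served as a model for the projection of axons to the bulb, and Olfr15 responds to a broad range of odorants.

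The upstream sequence of Olfr16 is shown because Olfr16 had the widest spread among replicates of the 6 and because its annotated start, alone of the 5 listed receptors with a sequence in the RefSeq promoter table, lies clearly before the first ATG (29 bases). In 3 of the other 4 the annotated start is the ATG itself, and in Olfr160 the ATG lies 3 bases in, so those sequences precede the coding start. Capitals mark matches to TAAT on either strand, the core bound by homeodomain factors such as Lhx2 and Emx2, which take part in receptor expression. The sequence covers chr1:172956518-172956767 of GRCm38.p6, plus strand, 5′ to 3′.
Olfr16 upstream: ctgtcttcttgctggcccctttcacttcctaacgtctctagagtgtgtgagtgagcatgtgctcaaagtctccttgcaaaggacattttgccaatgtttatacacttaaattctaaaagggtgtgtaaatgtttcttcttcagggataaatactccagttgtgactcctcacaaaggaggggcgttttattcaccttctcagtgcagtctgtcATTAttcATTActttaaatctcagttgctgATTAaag
It holds 3 matches, all near the start and all as ATTA on the printed strand. A TAAT match was present in 54.9% of the 32851 windows of all genes and in 93.7% of the 948 windows of odorant receptors, so its presence does not set Olfr16 apart. There were 4 matches for Olfr73, 2 for Olfr17 and 0 each for Olfr15 and Olfr160.

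**Figure D1:**
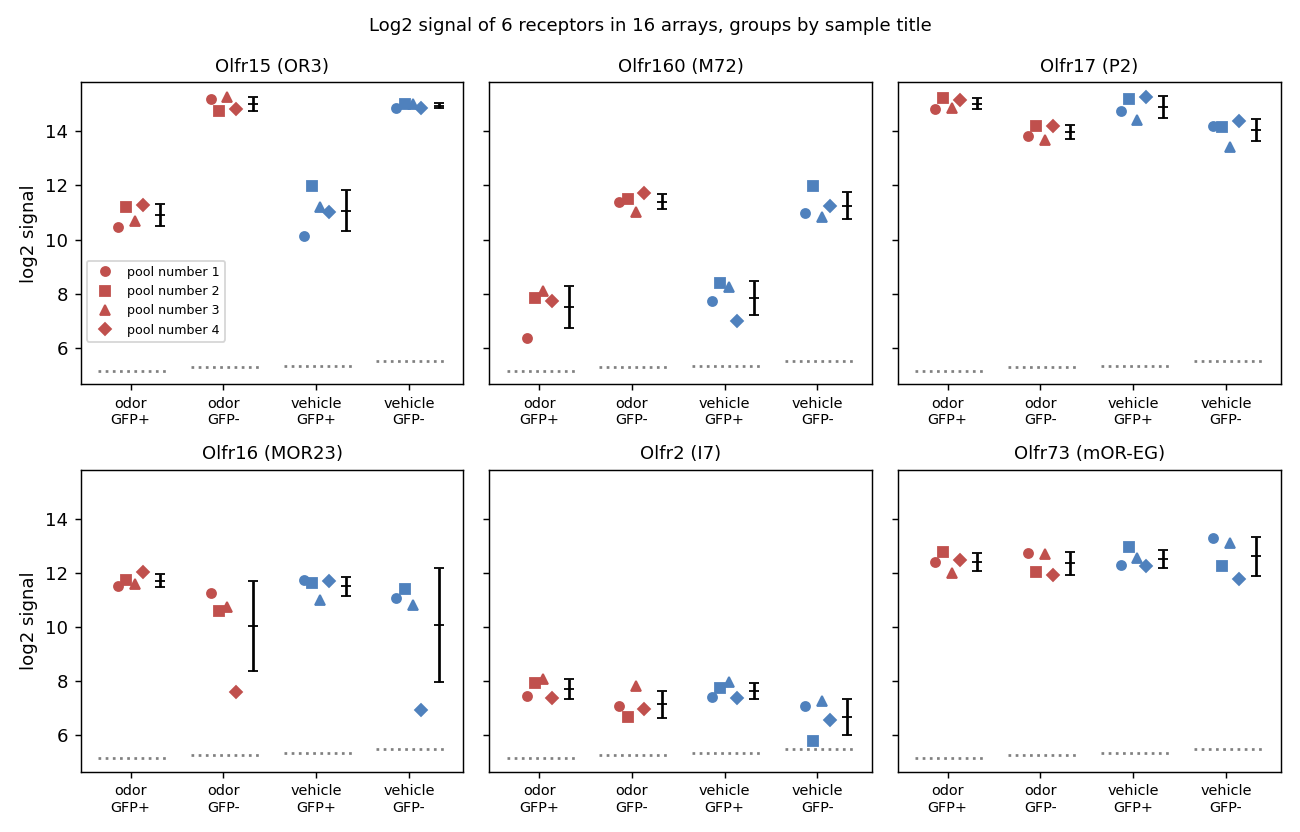
Log2 signal (vertical axis) of each of the 6 measured receptors, 1 panel per gene, in odor arrays titled GFP+, odor arrays titled GFP-, vehicle arrays titled GFP+ and vehicle arrays titled GFP-; points are arrays (n = 4 per group, symbols give the pool number), bars are the mean and SD, and dotted lines mark the group mean of the negative control medians. Olfr15 and Olfr160 lie far lower in the arrays titled GFP+, Olfr17 lies higher there, and Olfr16 has 1 low array in each group titled GFP-.

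Between the fractions, Olfr15 and Olfr160 were lower and Olfr17 was higher in the arrays titled GFP+ in both treatments, and Olfr2 was higher there in vehicle pools. In odor pools 1 of the 6 receptors was past the threshold as higher and 2 as lower, where 12.8% of all genes tested were called higher and 14.7% lower. In vehicle pools 2 were higher and 2 lower, where 12.3% of all genes were called higher and 13.6% lower. Of the 1091 Olfr genes, 252 were higher and 531 lower in odor pools, and 260 were higher and 519 lower in vehicle pools. The median difference of the 6 was 0.32 in odor pools, beside -0.64 over the 1091 Olfr genes and -0.15 over all genes. In vehicle pools it was 0.38, beside -0.61 and -0.14. This median of 6 values was unsteady: in odor pools it was 0.090 without replicate 2 and 0.51 without replicate 3, in vehicle pools it was 0.58 without replicate 1, 0.13 without replicate 2 and 0.031 without replicate 4, and with arrays centred on housekeeping genes it was -0.25 in odor pools and -0.20 in vehicle pools.

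Olfr15, the broadly tuned receptor of the MOR256 family, had the largest fraction difference of the 6. In odor pools 1 to 4 its log2 signal was 10.47, 11.21, 10.69 and 11.28 in the arrays titled GFP+, against 15.18, 14.75, 15.26 and 14.84 in the arrays titled GFP-. In vehicle pools 1 to 4 it was 10.12, 11.98, 11.19 and 11.00 in the arrays titled GFP+, against 14.84, 15.02, 15.01 and 14.87 in the arrays titled GFP-. All 8 arrays titled GFP- lay above all 8 titled GFP+, with a gap wider than the spread of either. The fraction difference was -4.09 ± 0.24 (SE) in odor pools, 17.1-fold lower (limma, adjusted p = 3.38e-08), and -3.86 ± 0.24 in vehicle pools, 14.5-fold lower (adjusted p = 6.72e-08). Only 18 of the 1091 Olfr genes had a lower difference in odor pools and 27 in vehicle pools. The 4 levels ordered as odor titled GFP- (15.01), vehicle titled GFP- (14.93), vehicle titled GFP+ (11.07) and odor titled GFP+ (10.91), and the groups of 1 title fraction overlapped.

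Olfr160 (M72), a receptor for acetophenone whose neurons project to dorsal glomeruli, showed the same direction. Its log2 signal in odor pools 1 to 4 was 6.36, 7.85, 8.09 and 7.72 in the arrays titled GFP+, against 11.38, 11.50, 11.03 and 11.71 in the arrays titled GFP-. In vehicle pools 1 to 4 it was 7.73, 8.41, 8.23 and 6.99 in the arrays titled GFP+, against 10.99, 11.96, 10.82 and 11.24 in the arrays titled GFP-. Again no array titled GFP+ reached the lowest array titled GFP-. The fraction difference was -3.90 ± 0.29 (SE) in odor pools, 14.9-fold lower (limma, adjusted p = 3.85e-07), and -3.41 ± 0.29 in vehicle pools, 10.7-fold lower (adjusted p = 1.43e-06). In the arrays titled GFP+ the feature was close to background, with 71.2% to 91.5% of the 5222 negative control features dimmer than it, so these folds may understate the difference. The log2 signals of Olfr160 and Olfr15 correlated at r = 0.96 over the 16 arrays, a value that includes the shared fraction difference, and their deviations from the group means at r = 0.37. In odor pools the fraction difference was largest in pool 1 for both, at -5.02 for Olfr160 and -4.72 for Olfr15. In vehicle pools it was largest in pool 4 for Olfr160 (-4.25) and in pool 1 for Olfr15 (-4.72).

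Olfr17 (P2) was higher in the arrays titled GFP+, with the tightest differences of the 6. In odor pools 1 to 4 its log2 signal was 14.83, 15.24, 14.84 and 15.14 in the arrays titled GFP+, against 13.81, 14.20, 13.69 and 14.18 in the arrays titled GFP-. In vehicle pools 1 to 4 it was 14.76, 15.20, 14.40 and 15.25 in the arrays titled GFP+, against 14.18, 14.17, 13.43 and 14.39 in the arrays titled GFP-. The 2 fractions did not overlap in either treatment, although in vehicle pools the lowest array titled GFP+ was only just above the highest titled GFP-. Within pools the difference was 0.58 to 1.15 and positive in 8 of 8 pools. It averaged 1.04 ± 0.08 (SE) in odor pools, 2.06-fold higher (limma, adjusted p = 5.59e-07), and 0.86 ± 0.08 in vehicle pools, 1.81-fold higher (adjusted p = 3.86e-06).

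**Figure D2:**
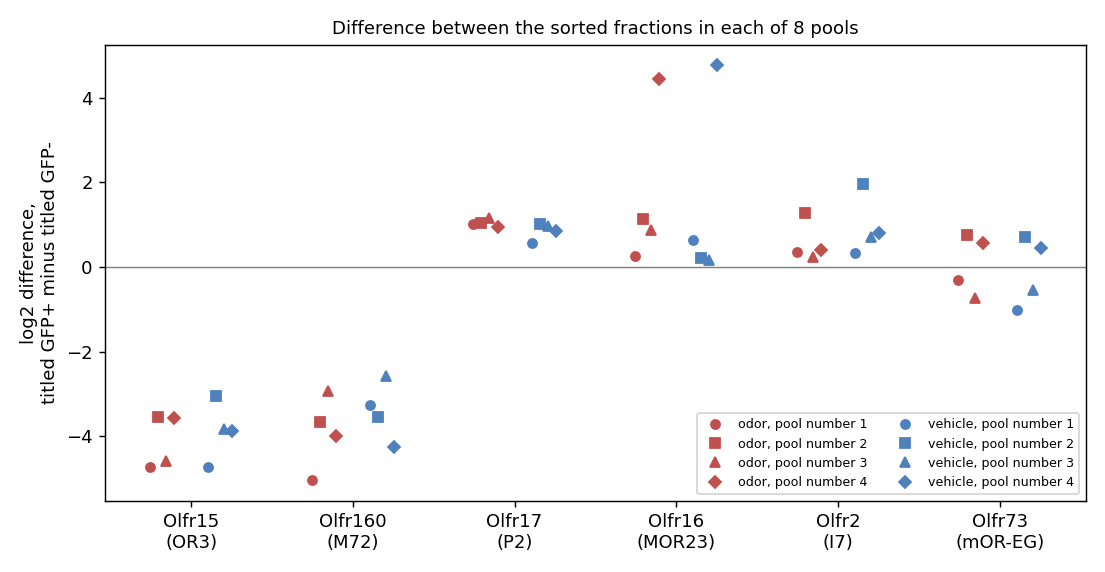
Fraction difference within each pool (log2 signal titled GFP+ minus titled GFP-, vertical axis) for the 6 receptors; points are the 4 odor pools and the 4 vehicle pools and the line at 0 marks equal levels. Olfr15 and Olfr160 are below 0 in 8 of 8 pools, Olfr17, Olfr16 and Olfr2 above 0 in 8 of 8, and Olfr73 lies on both sides.

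Olfr16 (MOR23), a receptor for lyral, was higher in the arrays titled GFP+ of all 8 pools by amounts that depended on the pool number. In odor pools 1 to 4 its log2 signal was 11.50, 11.73, 11.60 and 12.02 in the arrays titled GFP+, against 11.24, 10.61, 10.74 and 7.59 in the arrays titled GFP-. In vehicle pools 1 to 4 it was 11.73, 11.62, 10.99 and 11.69 in the arrays titled GFP+, against 11.09, 11.42, 10.82 and 6.93 in the arrays titled GFP-. In both treatments the array titled GFP- of number 4 stood far below the other 3, while the array titled GFP+ of that pool did not. The difference was 4.43 in odor pool 4 and 4.76 in vehicle pool 4, and 0.17 to 1.13 in the other 6 pools, with a mean of 0.54. Over all 4 pools it averaged 1.67 ± 0.71 (SE) in odor pools (limma, adjusted p = 0.102) and 1.44 ± 0.71 in vehicle pools (adjusted p = 0.159), short of the threshold. Without number 4 in both treatments, a choice made after the values were seen, it was 0.75 ± 0.17 in odor pools (adjusted p = 0.00945) and 0.34 ± 0.17 in vehicle pools (adjusted p = 0.208).

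Number 4 stood apart in other genes too. Against the mean of numbers 1 to 3, Olfr16 in the arrays titled GFP- of number 4 differed by -3.27 in odor pools and -4.18 in vehicle pools. Ranked by the smaller of these 2 falls, it came 4 of 19505 genes, after Eif2s3y, Uty and Kdm5d, which are encoded on the Y chromosome and were picked out after their values were seen. Eif2s3y was at 2.49 to 2.80 in the 4 arrays of number 4, against 10.06 to 11.43 in the other 12 arrays. Uty was at 3.38 to 4.17, against 9.80 to 11.10, and Kdm5d at 2.74 to 3.50, against 6.10 to 7.51. These 3 genes were below the median of the negative controls in 4 of 4 arrays of number 4, in both fractions, and in 0 of the other 12. In all, 9 genes were lower by more than 2 in both arrays titled GFP- of number 4, and 6 of the 9 were odorant receptors. In the arrays titled GFP+ there were 3 such genes, none of them a receptor. The count was made for number 4 alone, after its values were seen. Another rule covered every number: an array far from its group on the same side in both treatments, with ranges over 2. It picked Eif2s3y, Uty and Kdm5d in arrays titled GFP- of number 4, and Eif2s3y and Uty in those titled GFP+. For numbers 1 to 3 it picked 0 genes, and it picked no receptor. Whether the makeup of the number 4 pools bears on Olfr16 was not tested.

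**Figure D3:**
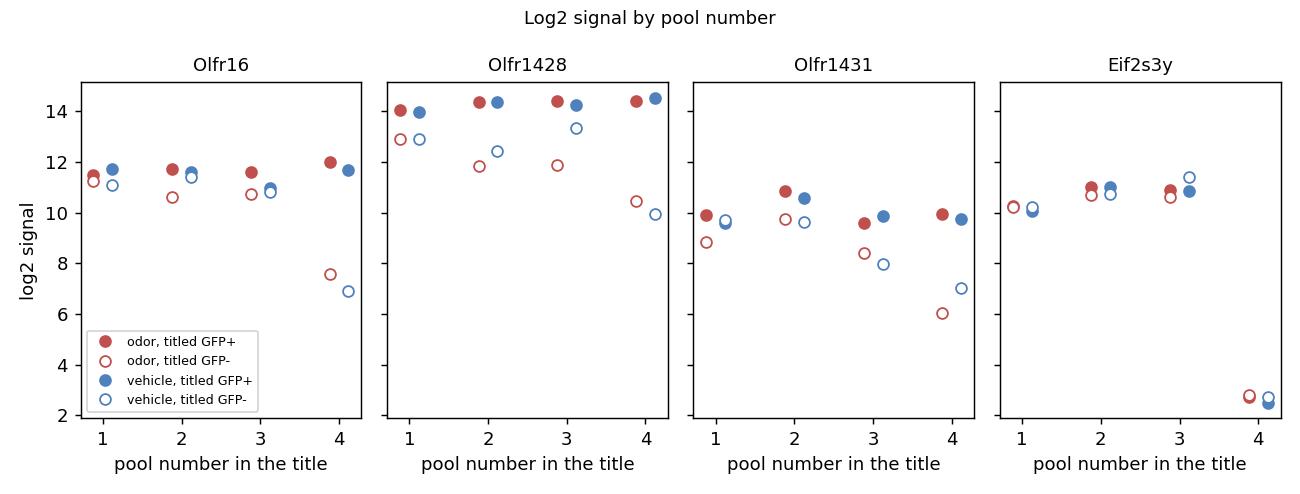
Log2 signal (vertical axis) by pool number for Olfr16, for Olfr1428 and Olfr1431, which are among the genes most like it, and for the Y-linked Eif2s3y; points are single arrays, filled for titled GFP+ and open for titled GFP-. Olfr16 is low in number 4 in the arrays titled GFP- (7.59 and 6.93) and not in those titled GFP+ (12.02 and 11.69), while Eif2s3y is low in number 4 in both fractions (2.49 to 2.80).

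Olfr2 (I7), a receptor for octanal and related aldehydes, was dim in all groups, with 55.7% to 91.5% of the negative control features below it. In odor pools 1 to 4 its log2 signal was 7.44, 7.93, 8.09 and 7.38 in the arrays titled GFP+, against 7.09, 6.66, 7.84 and 6.97 in the arrays titled GFP-. In vehicle pools 1 to 4 it was 7.43, 7.77, 7.97 and 7.37 in the arrays titled GFP+, against 7.09, 5.81, 7.26 and 6.57 in the arrays titled GFP-. The fractions overlapped in odor pools and did not in vehicle pools, and the difference was positive in 8 of 8 pools. It averaged 0.57 ± 0.25 (SE) in odor pools (limma, adjusted p = 0.114) and 0.95 ± 0.25 in vehicle pools (adjusted p = 0.0143). Pool 2 had the largest difference in both treatments, 1.27 in odor and 1.96 in vehicle, and without vehicle pool 2 the vehicle difference was 0.62 (adjusted p = 0.0815). The call in vehicle pools also ended with each array centred on its median (0.59, adjusted p = 0.0594) or on housekeeping genes (0.37, adjusted p = 0.216), and the difference in odor pools passed with arrays centred on mature neuron markers (0.84, adjusted p = 0.0251) or on the receptor median (1.10, adjusted p = 0.00265).

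Olfr73 (mOR-EG), a receptor for eugenol, did not pass the test in either treatment. Its log2 signal in odor pools 1 to 4 was 12.41, 12.79, 11.98 and 12.48 in the arrays titled GFP+, against 12.72, 12.04, 12.71 and 11.92 in the arrays titled GFP-. In vehicle pools 1 to 4 it was 12.29, 12.97, 12.56 and 12.24 in the arrays titled GFP+, against 13.30, 12.26, 13.10 and 11.79 in the arrays titled GFP-. The fractions overlapped in both treatments. The fraction difference was 0.07 ± 0.27 (SE) in odor pools (limma, 95% interval -0.52 to 0.66, adjusted p = 0.873) and -0.09 ± 0.27 in vehicle pools (-0.69 to 0.50, adjusted p = 0.824). Its sign went with the pool number in both treatments: the difference was -0.31 and -1.01 in odor and vehicle pool 1, -0.73 and -0.54 in pool 3, 0.75 and 0.71 in pool 2, and 0.56 and 0.45 in pool 4. With 4 pools above 0 and 4 below, the mean near 0 does not describe any single pool.

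**Figure D4:**
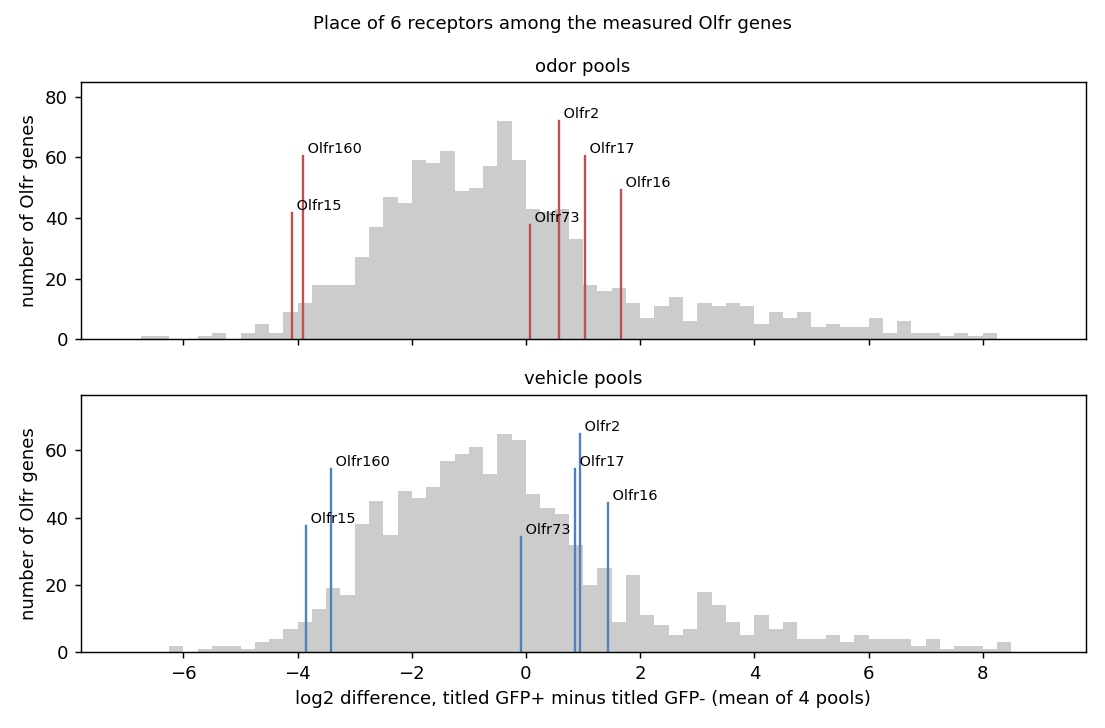
Histograms of the fraction difference (log2 signal titled GFP+ minus titled GFP-, horizontal axis, mean of 4 pools) of the 1091 Olfr genes (number of genes, vertical axis), odor pools above and vehicle pools below, with a vertical line at each of the 6 receptors whose height has no meaning. Olfr15 (-4.09 in odor, -3.86 in vehicle) and Olfr160 (-3.90 and -3.41) lie in the low tail, Olfr73 near 0, and Olfr2, Olfr17 and Olfr16 above 0.

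Family and position were set beside the differences as description. Families were read from the MOR numbers that RefSeq lists as synonyms. Olfr15 had the lowest difference of its MOR256 family in both treatments, with 48 other members measured. Those ran from -4.08 (Olfr222) to 6.74 (Olfr1384) in odor pools, where Olfr15 was at -4.09. In vehicle pools Olfr222 was at -3.64 and Olfr15 at -3.86. With an SE of 0.24 for Olfr15, its rank below Olfr222 is not settled. Olfr160 was the lowest of the MOR171 family in odor pools and second in vehicle pools, where Olfr919 was at -3.44; the 35 others reached 6.10 (Olfr972) in odor pools. Olfr17 was the highest of MOR263 in both treatments, above 9 others between -0.62 and 0.56 in odor pools. Olfr2 ranked 14 counted from the lowest of MOR103 in both treatments, with 15 others measured, and Olfr73 ranked 10 from the lowest of MOR174 in odor pools, with 13 others measured. A family thus held receptors with differences of both signs.

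The nearest measured receptor gene on either side, in the gene order of RefSeq (GRCm38.p6), often differed from the named one. The nearest is not always close: Olfr19, Olfr18 and Olfr12 lie far along the chromosome from Olfr15, Olfr160 and Olfr16, and the other neighbours lie much closer. Beside Olfr17, Olfr715b was lower in the arrays titled GFP+ (-0.85 ± 0.22 SE in odor pools and -0.79 ± 0.22 in vehicle pools, limma adjusted p = 0.0115 and 0.0180), while Olfr714 was at 0.04 and 0.35, short of the threshold. Beside Olfr160, Olfr874 was lower (-1.30 and -1.59), and the distant Olfr18 was higher (4.18 and 4.19), all past the threshold. Beside Olfr15, Olfr161 had differences of 0.65 and 0.17 that missed the threshold, and the distant Olfr19 was higher (5.08 and 6.38). For Olfr16, the distant Olfr12 was lower in both treatments (-1.58 and -1.10), and Olfr1408 was higher in odor pools only (0.56, against 0.21 in vehicle pools), a contrast that was not called in the test of odor against vehicle. Next to Olfr73 lay Olfr1161 (-1.39 in odor pools, past the threshold, and -0.18 in vehicle pools) and Olfr1162 (0.84 and 0.14, neither past it). Next to Olfr2 lay Olfr711 (0.37 in odor pools and 1.44 in vehicle pools, the second past the threshold) and Olfr713 (0.43 and 0.18, neither past it). As with Olfr1408, the contrast between treatments was not called for Olfr1161 or Olfr711 in the test of the change in the fraction difference.

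The genes most like each receptor over the 16 arrays, among 12148 genes brighter than the negative control median, were mostly other receptors. For Olfr15 they were Olfr533 (r = 0.992), Olfr309 (0.990) and Olfr57 (0.985), and for Olfr160 they were Olfr171 (0.994), Olfr535 (0.987) and Olfr517 (0.978). Such an r includes the difference between the fractions, which these genes share. Olfr171 was also the gene most like Olfr160 in deviations from the group means (r = 0.946), a measure that leaves the fraction difference out. Olfr1428 was most like Olfr16 by both measures (r = 0.883, and 0.916 for deviations), followed by Olfr1431 (0.863) and Olfr235 (0.857), and all 3 were lower in the GFP- titled arrays of number 4. Those arrays make up most of the spread of Olfr16, so genes picked for likeness to it would share this fall. It is no separate finding. Olfr17 was most like Pik3cb, Tubb2a and Qdpr (r = 0.921, 0.910 and 0.909), which are not receptors, and most like Olfr204 in deviations (0.923). For Olfr2 the genes were Olfr868, Olfr130 and Olfr1182 (r = 0.890, 0.874 and 0.873), with Cep41 in deviations (0.875). For Olfr73 they were Olfr930, Hs3st2 and Olfr713 (r = 0.756, 0.749 and 0.738), with Olfr1320 in deviations (0.878). Mrpl9 was the gene most like Olfr15 in deviations (0.895). Each of these genes was picked for the highest correlations among 12148 genes over only 16 arrays. How high an r such picking alone would give was not tested.

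Whiskey lactone was tested on the receptors within each fraction and through the change in the fraction difference. None of the 6 passed in any of these 3 comparisons by limma, and none had an unadjusted p below 0.05. The share of all genes called was 0.00513% (1 of 19505) for the change in the fraction difference and for the arrays titled GFP+, and 0% for the arrays titled GFP-, where 638, 951 and 1147 genes had an unadjusted p below 0.05. With the replicate number as a block, 15 genes were called in the arrays titled GFP- and 2 in the arrays titled GFP+, and 0 of the 6 receptors in either. In the arrays titled GFP+ the odor minus vehicle differences of the 6 ran from -0.33 (Olfr160, 95% interval -1.07 to 0.41) to 0.21 (Olfr16, -1.48 to 1.89). In the arrays titled GFP- they ran from -0.26 (Olfr73, -0.88 to 0.35) to 0.46 (Olfr2, -0.17 to 1.09). The interval was narrowest for Olfr17, at -0.29 to 0.51 in the arrays titled GFP+ and -0.47 to 0.33 in those titled GFP-, and odor and vehicle arrays overlapped for all 6 receptors in both fractions. For the change in the fraction difference, the values ran from -0.49 ± 0.41 (SE, Olfr160) to 0.23 ± 1.01 (Olfr16). These intervals do not show that the odor left the receptor signals unchanged.

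For scale, Olfr221 was the gene called in both tests. Its fraction difference was -4.38 in odor pools and 1.43 in vehicle pools, a change of -5.81 ± 0.56 (SE, limma adjusted p = 0.00306). In the arrays titled GFP+ it was at 7.29 ± 1.24 in odor pools and 10.29 ± 0.22 in vehicle pools (SD, n = 4 each, adjusted p = 0.0412). Olfr15 and Olfr160 thus had differences between fractions of nearly the same size as Olfr221 in odor pools, but had them in vehicle pools as well.

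**Figure D5:**
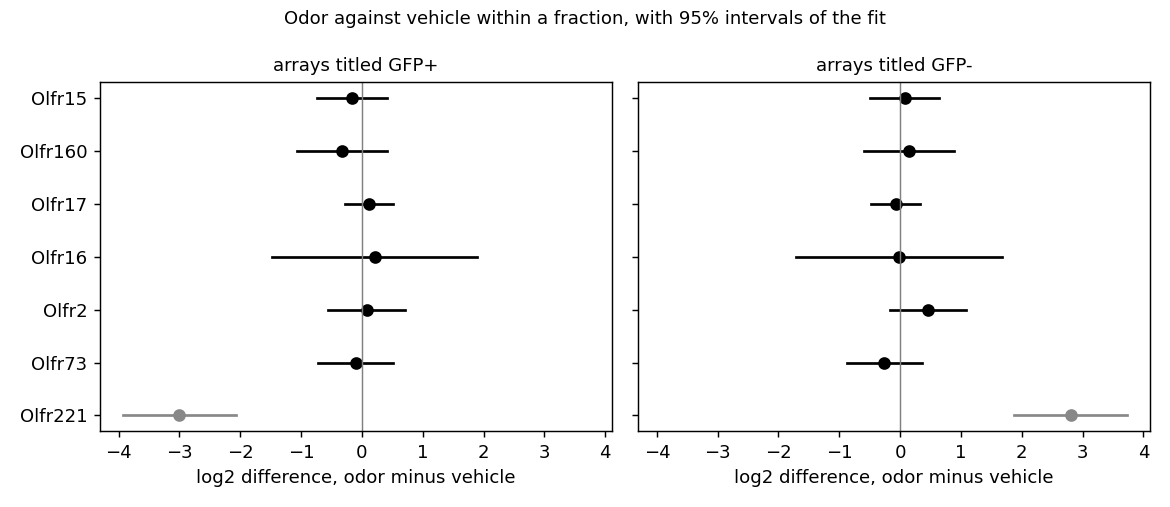
Odor minus vehicle difference (log2 signal, horizontal axis) of the 6 receptors and of Olfr221 in arrays titled GFP+ and arrays titled GFP-; points are limma estimates and bars their 95% intervals. The bars of all 6 receptors cross 0, and the widest, those of Olfr16, span -1.48 to 1.89 in arrays titled GFP+ and -1.70 to 1.67 in arrays titled GFP-. The estimates of the 6 run from -0.33 to 0.21 in arrays titled GFP+ and from -0.26 to 0.46 in arrays titled GFP-, while Olfr221 lies at -3.00 and 2.80.

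The genes that carry the receptor signal were counted in the same fits. Over all genes, 12.8% were called higher and 14.7% lower in odor pools, and 12.3% and 13.6% in vehicle pools. Of 19 measured transduction genes, 2 were higher and 8 lower in the GFP+ titled arrays of each treatment, a larger share lower than over all genes. Their median difference was -0.15 in odor pools and -0.19 in vehicle pools, near the -0.15 and -0.14 over all genes. Pde1c, a calcium-dependent phosphodiesterase of the cilia, was at -0.80 and -0.81 in odor and vehicle pools, and Ano2 at -0.47 and -0.48. The 2 higher genes were Gnas (4.49 and 4.44), the broadly expressed relative of Gnal, and the receptor kinase Grk3 (0.91 and 1.31). Grk3 was near background, where the negative control median was 4.98 to 5.59. Its mean was 5.84 in arrays titled GFP+ against 4.93 in those titled GFP- in odor pools, and 6.21 against 4.90 in vehicle pools. Gnal was at -0.11, short of the threshold, in odor pools and at -0.19, past it, in vehicle pools. Of 12 genes of receptor trafficking and choice, 1 was higher and 5 lower in odor pools, and 1 was higher and 3 lower in vehicle pools. The higher one was Lbr (1.99 and 1.89), the lamin B receptor of the nuclear envelope. Rtp2, which helps receptors reach the membrane, was at -0.28 and -0.36, the homeodomain factor Emx2 at -0.32 and -0.46, and the stress-response factor Atf5 at -0.35 and -0.24, all lower. Reep1 (-0.33) and Ebf1 (-0.25) were lower in odor pools, and missed the threshold in vehicle pools (-0.14 and -0.11). None of these genes was called in the 3 tests of odor against vehicle, where 0 to 0.00513% of all genes were.

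Cell type markers were counted beside the same shares of all genes, 12.8% higher and 14.7% lower in odor pools and 12.3% and 13.6% in vehicle pools. Of the 15 mature neuron markers, 0 were higher and 7 lower in odor pools, and 0 were higher and 8 lower in vehicle pools, with medians of -0.20 and -0.30. Most of these markers are also in the transduction list. Except for Slc17a6, every marker called lower was already counted among the lower transduction genes, so the counts are not separate results. The largest difference of a mature neuron marker, that of Pde1c, was -0.80 in odor pools and -0.81 in vehicle pools. It was smaller in size than those of Olfr15 and Olfr160, and Olfr17 differed in the other direction. Besides the neutrophil list, 8 of 8 macrophage and antigen presenting cell markers and 4 of 4 red cell markers were higher in the arrays titled GFP+ in both treatments, as were 9 of 10 microvillar, 8 of 10 sustentacular and 5 of 10 immature neuron markers (1 of the 10 was lower). Of 8 progenitor markers, 3 were higher and 1 lower in odor pools, and 3 were higher and 0 lower in vehicle pools. Of 8 smooth muscle and pericyte markers 2 were higher in each treatment, with 1 lower in vehicle pools. None of 6 endothelial markers passed in either treatment, and 2 of 5 ciliated cell markers were lower in odor pools and 3 of 5 in vehicle pools. Many markers were at or below the negative control median in all arrays of a group, so these counts say little. They were 4 to 5 of the 6 endothelial, 4 to 7 of the 8 progenitor and 4 to 6 of the 8 smooth muscle and pericyte markers. Both single lower markers had means under it: Trp63 (3.22 against 3.73, odor pools) and Des (2.51 against 3.10, vehicle pools). The mean level of the immature neuron markers was 12.36 to 12.82 in odor arrays titled GFP+, against 11.01 to 11.20 in odor arrays titled GFP-. The part of these cells in the receptor differences was not tested.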

How the data were processed

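Biotin-labelled cRNA from 50 to 100 ng of total RNA was hybridised to Affymetrix arrays, per the labels' protocols. The authors deposited 1 table of log2 signals (a scale judged from the range of the values). The submitters' processing notes name Affymetrix Expression Console; which version, normalization and background correction were used was not given in the sources used here. Of 28846 features, 19572 had 1 gene symbol in the platform annotation, 0 had several, and all 19572 matched a RefSeq gene table (GRCm38.p6) by gene number. The brightest feature by mean signal was kept for each of 19505 genes, with no filter on dim genes. The 5222 negative control features measured background: their median was 4.98 to 5.59 on the 16 arrays. No 2 arrays were duplicates (smallest SD of log2 differences 0.554). The number of arrays limits the precision.

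Groups and numbers came from the titles. All genes were tested together with limma 3.58.1 under R 4.3.3 (lmFit, eBayes with trend), two-sided, Benjamini-Hochberg adjusted over 19505 genes, with a threshold of 0.05. For fraction differences the pool was a fixed term in a fit of the 16 arrays, which left 6 residual degrees of freedom. For odor against vehicle the 4 group means were fitted and the pool entered as a random block (correlation 0.164), which left 12. Only the tests of the change in the fraction difference and of odor against vehicle in arrays titled GFP- were tried on simulated data. The receptors and gene lists were chosen with earlier results of these data known. Named genes were the listed receptors, S100a5, Omp, the 3 genes most like each receptor and the 1 most like it in deviations from the group means, the neighbouring Olfr genes, the leading or few called genes of each list, and Olfr221; the part of the rule on protein identity could not be run, and MOR families, which took its place, the Y-linked genes and the pattern by pool number were singled out after values were seen.

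Each array's deviations from its group means served to check the pairing. Between the 2 fractions of 1 pool, r was 0.116 to 0.192 (odor) and 0.136 to 0.341 (vehicle). Between an odor pool and the vehicle pool with its number, r was 0.198 to 0.279 in the GFP- titled arrays, with 4 of 4 pairs over 0.1, so the numbers were taken as pairs there and the fit with the number as a block is given beside the main one, which has no such block. In the GFP+ titled arrays r was 0.0787 to 0.410, with 3 of 4 pairs over 0.1. The labels describe simultaneous exposure without tying it to a shared number.

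Alternatives were other blocks, median, housekeeping, mature neuron and receptor median centring, cyclic loess, a dim filter at the 30th percentile, the mean of a gene's features, robust and trend-free eBayes, the arrays of 1 fraction alone, each replicate left out, and, chosen after seeing the data, numbers 1 to 3 only.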

Additional observations from a re-analysis of the deposited data

Results flagged for a closer look

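Among 54 groups of 4 values checked for the receptors, S100a5, Omp and Olfr221, 5 held a value far from its neighbours by Dixon's 95% criterion, which chance alone meets in about 5% of groups. Olfr16 was at 6.93 in the vehicle array titled GFP- of replicate 4, where the nearest replicate was at 10.82, and the same pool had an Olfr16 fraction difference of 4.76, where the nearest was 0.65. Olfr16 was also at 10.99 in the vehicle array titled GFP+ of replicate 3, where the nearest was at 11.62. The Olfr2 fraction difference of odor pool 2 was 1.27, where the nearest was 0.41. S100a5 was at 16.23 in the vehicle array titled GFP- of replicate 4, where the nearest was at 16.59. The Olfr221 fraction difference changed by -5.81 between odor and vehicle pools by limma's interaction test.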

How the results depend on the processing

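Olfr15, Olfr160 and Olfr17 kept their direction and their side of the threshold in all 16 alternatives of each fraction contrast: Olfr15 at -4.67 to -3.57 in odor pools and between -4.44 and -3.36 in vehicle pools, Olfr160 at -4.47 to -3.37 and -3.99 to -2.91, Olfr17 at 0.47 to 1.57 and 0.28 to 1.36. Centring shifted every gene alike: housekeeping centring by -0.57 in odor and -0.58 in vehicle pools, receptor median centring by 0.53 and 0.51. The next receptor counts come without the share of all genes called, so they do not set the receptors apart from other genes. The count of receptors called higher in odor pools was 2 with mature neuron centring, 3 with receptor median centring and 2 with numbers 1 to 3 only, and in vehicle pools 1 with median centring, 1 with housekeeping centring, 3 with receptor median centring and 1 to 2 with a replicate left out; with housekeeping centring 3 were called lower there. The median of the 6 was -0.25 in odor and -0.20 in vehicle pools with housekeeping centring, and 0.85 and 0.89 with receptor median centring. Olfr16 passed with receptor median centring (2.20 in odor, adjusted p = 0.0128, and 1.95 in vehicle pools, 0.0256), and Olfr73 in vehicle pools with housekeeping centring (-0.67, adjusted p = 0.0483). Signs turned, never past the threshold, as follows: in odor pools, Olfr73 with median centring (-0.31), housekeeping centring (-0.51) and numbers 1 to 3 only (-0.10), and Olfr2 with housekeeping centring (-0.0033); in vehicle pools, Olfr73 with cyclic loess (0.033), mature neuron centring (0.21) and receptor median centring (0.41); in arrays titled GFP-, odor minus vehicle, Olfr16 with mature neuron centring (0.0020) and Olfr15 with receptor median centring (-0.015).

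With 1 replicate left out, signs turned within these ranges: the Olfr73 fraction difference, -0.16 to 0.33 (odor pools) and -0.36 to 0.21 (vehicle pools); the change of the fraction difference, -0.52 to 0.039 for Olfr15, -0.69 to 1.33 for Olfr16 and -0.14 to 0.43 for Olfr73; odor minus vehicle in arrays titled GFP+, -0.049 to 0.19 for Olfr2, -0.48 to 0.14 for Olfr15, -0.054 to 0.23 for Olfr17, -0.23 to 0.050 for Olfr73 and -0.62 to 0.048 for Olfr160; and in arrays titled GFP-, -0.011 to 0.16 for Olfr15, -1.06 to 0.80 for Olfr16 and -0.28 to 0.044 for Olfr17. With the replicate number as a block, the odor called 2 genes in the GFP+ titled fraction and 15 in the GFP- titled one, and 0 of the 6 receptors (lowest adjusted p = 0.927 and 0.461); the block and its omission changed no receptor's call. The causes were not tested. Limits are the 4 pools per treatment, the unsettled fraction label, and the dim features of Olfr2 and, in arrays titled GFP+, Olfr160.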
